A study of Homo sapiens with 12 samples.

Results

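Interferon-stimulated genes (ISGs) were examined by bulk RNA-seq in 4 related lines of human mammary epithelial origin. The 45 genes were chosen by symbol from a fixed list, and all 45 of 45 were found among the 59427 gene symbols of the authors' TPM table. The list was drawn up with earlier results of these data known, so its contrasts with all genes are descriptive. The labels give only the names of the lines, and their histories, given next, are general knowledge. MCF10A is immortalised and non-tumorigenic, and the lines derived from it carry activated HRAS. Of these, MCF10AT1 is premalignant, MCF10DCIS forms lesions resembling ductal carcinoma in situ, and MCF10CA1a forms metastatic carcinoma. Each stage is represented by 1 cell line, sampled in 3 libraries per the labels. One culture medium served for the 4 lines and contained hydrocortisone, cholera toxin, EGF, insulin and horse serum. The labels name no interferon, virus or other added stimulus. The table gives 1 value per line, the authors' mean TPM over its libraries, so no value has an error, no difference was tested, and the depth is unknown. HRAS was at 50.8, 126, 276 and 312 TPM in MCF10A, MCF10AT1, MCF10DCIS and MCF10CA1a, lowest in MCF10A.

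Interferons are secreted cytokines that act through cell surface receptors and JAK kinases. Type I and type III interferons activate ISGF3, a transcription factor complex that includes STAT2 and IRF9 and binds the interferon-stimulated response element (ISRE) in target promoters. Interferon gamma acts mainly through another element, the gamma-activated sequence (GAS). The products of ISGs sense foreign nucleic acids, block viral entry, translation or release, and feed back on the pathway. Many of them are also made at a basal level in epithelial cells without added interferon.

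RefSeq promoter windows (GRCh38.p14), from 250 bases before to 50 bases after each annotated start, were matched for 37 of the 45 genes, with DDX58 found under its newer symbol RIGI. IRF7, OAS2, OASL, IFIT2, IFITM2, MX2, USP18 and TRIM22 had no matched window. The ISRE core was searched as GAAA, any 2 bases and again GAAA, on both strands, with overlapping matches allowed. It was present in 26 of the 37 genes (70.3%), against 4.38% of the 27305 genes with a window and 3.57% of all windows of the same length. The GAS letters TTCNNNGAA, which read the same on both strands, were present in 11 of the 37 (29.7%), against 9.38% of genes and 7.66% of windows. A match is a run of letters in the reference and says nothing of whether a factor was bound in these cells.

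The stretches below carry ISRE core matches in capitals, with 20 bases on either side, and end before the RefSeq start of the window. Some lie inside the longer GENCODE span of the gene, as for IFITM1, whose span begins at 313506. They were chosen because their genes took different courses across the 4 lines. The first 4 genes were higher in MCF10CA1a than in MCF10A. The next 4 were lower in MCF10DCIS than in MCF10A, IFIT1 was low in every line, and IFI44L was highest in MCF10AT1. All are written 5′ to 3′ on the strand of the gene, so that a match on the opposite strand reads TTTC, any 2 bases and TTTC.
BST2: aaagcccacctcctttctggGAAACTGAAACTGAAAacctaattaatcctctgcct
IFITM1: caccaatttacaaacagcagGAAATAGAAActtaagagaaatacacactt
ISG20: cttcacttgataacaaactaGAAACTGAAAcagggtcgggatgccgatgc
LGALS3BP: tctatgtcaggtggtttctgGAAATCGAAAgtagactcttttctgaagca
ISG15: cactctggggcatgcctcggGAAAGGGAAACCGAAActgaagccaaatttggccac
SAMD9: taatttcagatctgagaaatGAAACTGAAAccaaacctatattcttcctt
IFI27: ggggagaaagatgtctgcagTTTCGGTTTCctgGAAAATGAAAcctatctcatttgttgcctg
EPSTI1: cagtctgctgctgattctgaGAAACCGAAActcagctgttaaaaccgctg
IFIT1: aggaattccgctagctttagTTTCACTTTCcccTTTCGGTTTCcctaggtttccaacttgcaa
IFI44L: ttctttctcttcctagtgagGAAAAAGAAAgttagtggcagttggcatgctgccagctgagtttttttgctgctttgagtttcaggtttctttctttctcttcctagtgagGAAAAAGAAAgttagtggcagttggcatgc

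The BST2 stretch lies at chr19:17405725-17405780 on the minus strand, positions -150 to -95 from the start, and holds 2 overlapping matches. That of ISG15, also with 2 overlapping matches, lies at chr1:1013364-1013419 on the plus strand. SAMD9 (chr7:93118086-93118135, minus strand) and ISG20 (chr15:88638927-88638976, plus strand) each have 1 match, and the matched letters are GAAACTGAAA in both. The remaining stretches lie at chr11:313980-314029 (IFITM1, plus), chr17:78979952-78980001 (LGALS3BP, minus), chr14:94110608-94110670 (IFI27, plus), chr13:42992262-42992311 (EPSTI1, minus), chr10:89392487-89392549 (IFIT1, plus) and chr1:78620264-78620404 (IFI44L, plus). A second IFITM1 match spans the start and is not shown.

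**Figure D1:**
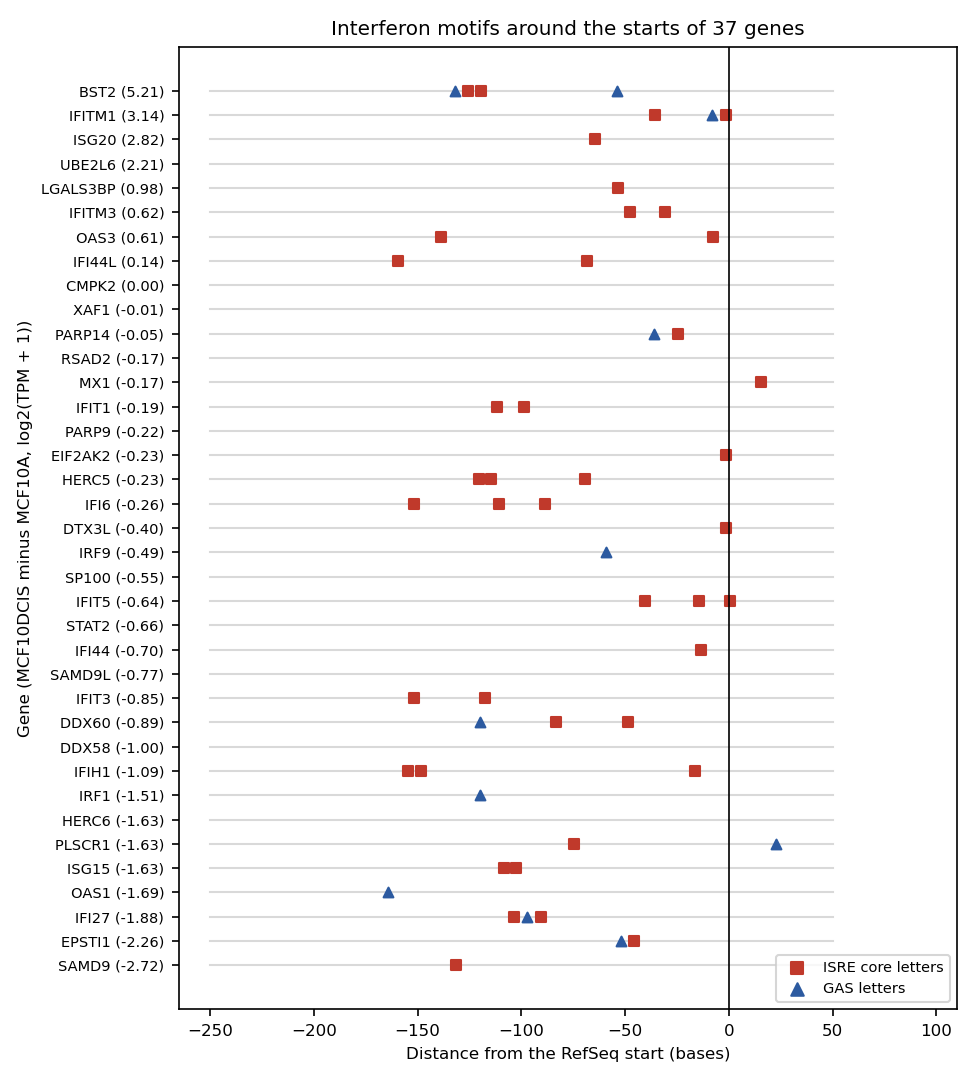
Positions of ISRE core letters (red squares) and GAS letters (blue triangles) around the annotated starts of 37 ISGs, in bases from the start, using the first RefSeq window of each gene (PARP9 and RSAD2 hold an ISRE core only in another window). Genes run from the highest to the lowest difference MCF10DCIS minus MCF10A, given in brackets on the log2(TPM + 1) scale, and matches stand both near the top (BST2, 5.21) and at the bottom (SAMD9, -2.72).

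Levels were compared as log2(TPM + 1), so that differences of low genes are understated. The rule of size for calling a gene higher or lower was a log2 difference of 1 or more, which is 2-fold in TPM + 1. Of the 45 ISGs, 36 reached 1 TPM in at least 1 line and entered the counts, beside 13108 genes in all. Of these, 23 reached 1 TPM in all 4 lines, and OAS2 and IFI44L did so in only 1. Structural and small non-coding RNAs took 66.0% of the TPM in MCF10DCIS and 57.6% to 60.0% in the other lines. In MCF10DCIS the median difference of all genes was -0.38 against MCF10A, or -0.095 after rescaling the remaining genes to 1000000 ("rescaled TPM", which leaves out structural and small RNAs, ribosomal protein genes and mitochondrial genes). In MCF10AT1 and MCF10CA1a the medians were -0.066 and -0.074, or 0.040 and 0.045 with rescaled TPM. The remaining genes held 26.6% to 34.4% of the TPM, so rescaled values are larger. As 1 was still added to them, differences of low genes are less understated with rescaled TPM. Counts can change for that reason too.

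The ISGs did not all differ in one direction. Of the 36, 28 differed by at least 1 between some pair of lines (77.8%), against 30.8% of all genes. The median distance between a gene's highest and lowest line was 1.51 for the ISGs and 0.742 for all genes. The ISGs were chosen with earlier results of these data known, so this contrast is no test of the set. In MCF10CA1a 8 ISGs were higher and 3 lower than in MCF10A, against 5.97% and 7.14% of all genes. For MCF10DCIS the counts were 4 higher and 11 lower, against 3.56% and 14.8% of all genes. For MCF10AT1 they were 5 higher and 6 lower, against 3.39% and 5.87%. MCF10CA1a was the line with the highest level for 19 of the 36 genes, against 28.7% of all genes, and for 18 with rescaled TPM, against 28.5%. MCF10DCIS had the lowest level for 23, against 57.3% of all genes, and for 19 with rescaled TPM, against 36.3%. In bulk RNA, a lower level in every cell and a loss in part of the cells cannot be told apart.

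**Figure D2:**
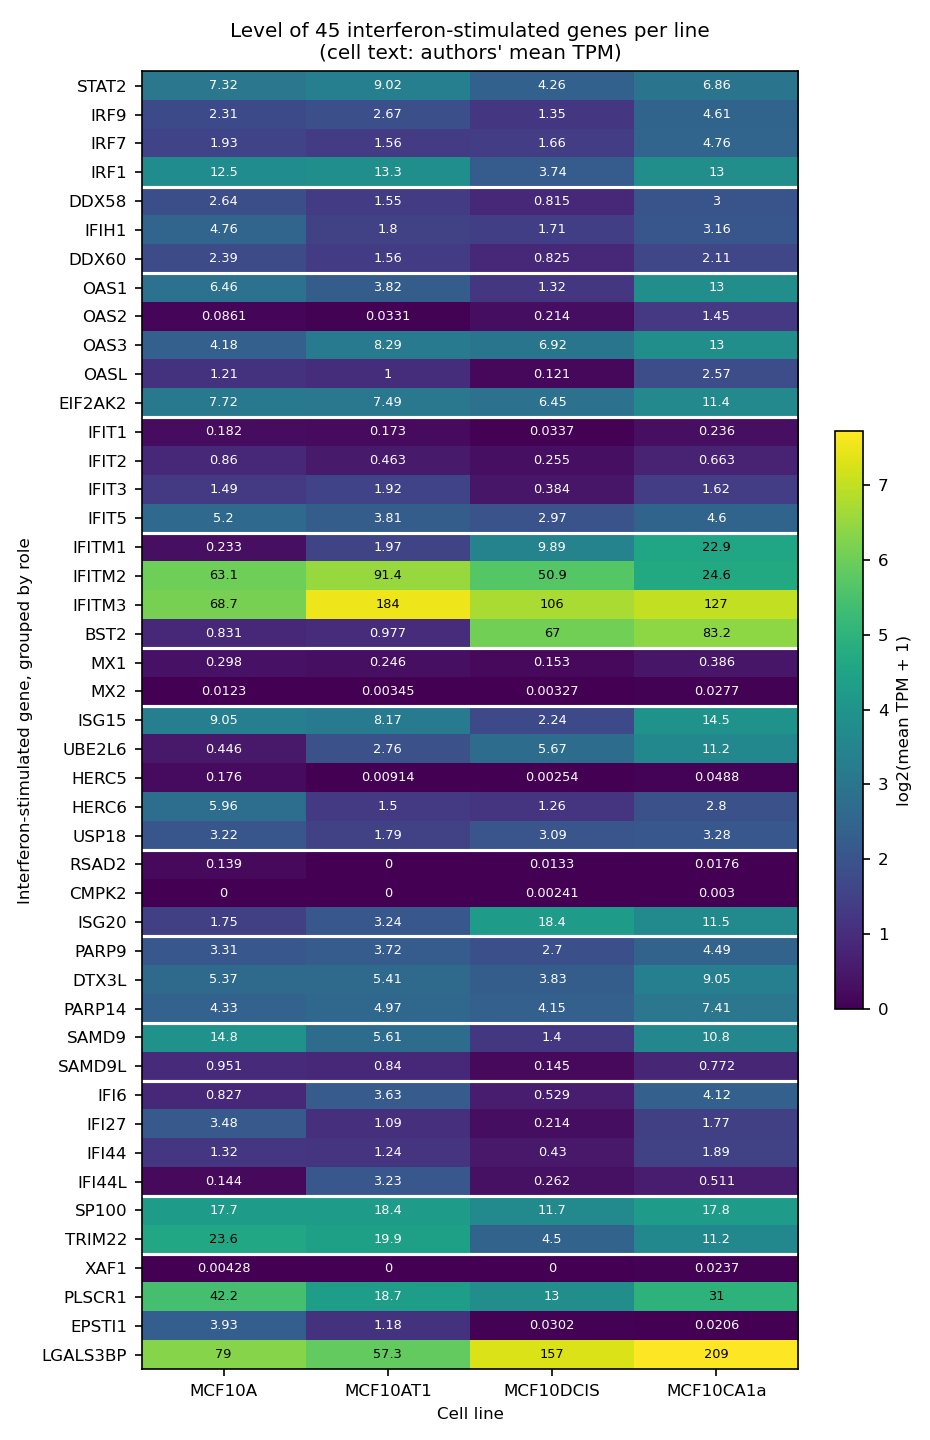
The authors' mean TPM of each of 45 ISGs (rows, grouped by role) in the 4 lines (columns); colour gives log2(TPM + 1) and the text in each cell the TPM. BST2 stood at 67.0 and 83.2 TPM in MCF10DCIS and MCF10CA1a and under 1 TPM in the other lines, while RSAD2, CMPK2, MX2 and XAF1 were close to 0 throughout.

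The transcription factors of the pathway were present in every line. STAT2, a subunit of ISGF3, was at 7.32 (MCF10A), 9.02 (MCF10AT1), 4.26 (MCF10DCIS) and 6.86 TPM (MCF10CA1a). IRF9, the DNA-binding subunit of ISGF3, was at 2.31, 2.67, 1.35 and 4.61 TPM in the same order, with the highest value in MCF10CA1a. IRF7, which amplifies the transcription of type I interferon genes, was at 1.93, 1.56, 1.66 and 4.76 TPM, again highest in MCF10CA1a. IRF1, a factor strongly induced by interferon gamma, stood apart in MCF10DCIS, with 12.5, 13.3, 3.74 and 13.0 TPM. Its log2 difference from MCF10A was -1.51 in MCF10DCIS and within 0.08 in the other derived lines. IRF7 came just under the rule in MCF10CA1a (0.97) and passed it with rescaled TPM. Of the 50-base stretches of IRF9's coding transcripts, 82.7% are also part of an overlapping annotated transcript, AL136295.5, so its level is uncertain.

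Of the sensors of foreign RNA, DDX58 and DDX60 had their lowest values in MCF10DCIS, where 57.3% of all genes did. DDX58, which encodes the RNA sensor RIG-I, was at 2.64, 1.55, 0.815 and 3.0 TPM in MCF10A, MCF10AT1, MCF10DCIS and MCF10CA1a. IFIH1, which encodes the long double-stranded RNA sensor MDA5, was at 4.76, 1.80, 1.71 and 3.16 TPM. DDX60, a related helicase gene, was at 2.39, 1.56, 0.825 and 2.11 TPM. IFIH1 was close in MCF10AT1 and MCF10DCIS, and with rescaled TPM its lowest value was in MCF10AT1. By the rule of size IFIH1 was lower than in MCF10A in MCF10AT1 (-1.04) and in MCF10DCIS (-1.09), and DDX58 in MCF10DCIS (-1.0). All 3 calls lie near the limit and are lost in some settings, with IFIH1 at -0.90 in MCF10AT1 and -0.70 in MCF10DCIS and DDX58 at -0.72 in the setting with the smallest difference. In MCF10CA1a none of the 3 reached a difference of 1 from MCF10A.

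The OAS genes, whose enzymes make oligoadenylates on double-stranded RNA to activate RNase L, diverged although OAS1, OAS3 and OAS2 are adjacent on chromosome 12. OAS1 was at 6.46 (MCF10A), 3.82 (MCF10AT1), 1.32 (MCF10DCIS) and 13.0 TPM (MCF10CA1a), a range with its low point in MCF10DCIS and its high point in MCF10CA1a. OAS3, 5130 bases away, was at 4.18, 8.29, 6.92 and 13.0 TPM and had differences from MCF10A of 0.84, 0.61 and 1.44 in the 3 derived lines. OAS2 was at 0.0861, 0.0331, 0.214 and 1.45 TPM and reached 1 TPM only in MCF10CA1a. OASL, a family member without this enzymatic activity that promotes RIG-I signalling, was at 1.2, 1.0, 0.121 and 2.57 TPM. EIF2AK2, which encodes the translation-blocking kinase PKR, was at 7.72, 7.49, 6.45 and 11.4 TPM. All 5 were thus highest in MCF10CA1a, against 28.7% of all genes. Only OAS2 and OAS3 were counted as higher there than in MCF10A, while 4 of the 5 were with rescaled TPM. Between MCF10CA1a and MCF10DCIS, OAS1 differed by 2.59 and OASL by 1.67. OAS1 led the ISGs in that comparison with a pseudocount of 1, whereas with 0.1 OASL was further apart, at 3.6.

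The IFIT genes, which encode a family of antiviral proteins, were low. IFIT5 was at 5.20, 3.81, 2.97 and 4.60 TPM in MCF10A, MCF10AT1, MCF10DCIS and MCF10CA1a, and IFIT3 at 1.49, 1.92, 0.384 and 1.62 TPM. IFIT1 and IFIT2 did not reach 1 TPM in any line, with highest values of 0.236 TPM in MCF10CA1a and 0.860 TPM in MCF10A. Each of the 4 genes had its lowest value in MCF10DCIS with deposited and with rescaled TPM, against 57.3% and 36.3% of all genes. The order of the lines is uncertain for IFIT1 and IFIT2 at such low levels. With deposited TPM none of the 2 genes that entered the counts was higher or lower than in MCF10A in any derived line. IFIT3 in MCF10DCIS was at -0.85, and with rescaled TPM it passed the rule as lower (-1.12).

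The largest differences were those of BST2 and IFITM1, which encode membrane proteins. BST2, which encodes tetherin, a protein that holds budding virions at the cell surface, was at 0.831 (MCF10A), 0.977 (MCF10AT1), 67.0 (MCF10DCIS) and 83.2 TPM (MCF10CA1a). It was at about the same level in MCF10A and MCF10AT1 and higher in both carcinoma lines, with log2 differences from MCF10A of 5.21 in MCF10DCIS and 5.52 in MCF10CA1a. IFITM1, which encodes a restriction factor of viral entry, was at 0.233, 1.97, 9.89 and 22.9 TPM, a higher value in each of the lines in that order. Its differences from MCF10A were 1.27, 3.14 and 4.28. IFITM2 was at 63.1, 91.4, 50.9 and 24.6 TPM, above MCF10A in MCF10AT1 (0.53) and lower in MCF10CA1a (-1.33). Its difference in MCF10DCIS was -0.31, or 0.057 with rescaled TPM. IFITM3 was at 68.7, 184, 106 and 127 TPM, highest in MCF10AT1 with a difference of 1.41. The 3 IFITM genes stand in a cluster on chromosome 11 (GENCODE 29, GRCh38), with IFITM1 from 313506 to 315272 and IFITM3 from 319669 to 327537. The annotated span of IFITM2 includes IFITM1. They are close paralogs: 32.9% of the 50-base stretches of IFITM1 transcripts, 35.3% of IFITM2 and 16.0% of IFITM3 also occur in transcripts of another gene, so reads can be shared and the split between them is uncertain.

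MX1 and MX2, which encode antiviral GTPases and are strongly induced by type I interferon, were low in all lines. MX1 was at 0.298, 0.246, 0.153 and 0.386 TPM, and MX2 was at most 0.0277 TPM.

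The ISG15 conjugation system was uneven. ISG15, a ubiquitin-like protein that is attached to other proteins, was at 9.05 (MCF10A), 8.17 (MCF10AT1), 2.24 (MCF10DCIS) and 14.5 TPM (MCF10CA1a). UBE2L6, its conjugating enzyme, was at 0.446, 2.76, 5.67 and 11.2 TPM. In MCF10DCIS the modifier was lower (-1.63) and its conjugating enzyme higher (2.21) than in MCF10A. HERC5, the main ISG15 ligase in human cells, was at 0.176 TPM in MCF10A and at most 0.0488 TPM in the derived lines. HERC6, its counterpart as ISG15 ligase in mouse, was at 5.96, 1.5, 1.26 and 2.80 TPM and was lower in MCF10AT1 (-1.48) and MCF10DCIS (-1.63). USP18, which removes ISG15 and restrains interferon receptor signalling, was at 3.22, 1.79, 3.09 and 3.28 TPM, with no difference from MCF10A of 1 or more. Of its 50-base stretches 23.4% recur in other annotated genes, chiefly USP41.

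Of the enzymes acting on nucleic acids and nucleotides, only ISG20 was well above 1 TPM. This exonuclease gene was at 1.75, 3.24, 18.4 and 11.5 TPM in MCF10A, MCF10AT1, MCF10DCIS and MCF10CA1a. It was the only one of the 36 genes with its highest level in MCF10DCIS, against 7.74% of all genes, and USP18 joined it with rescaled TPM, against 17.4%. Its differences from MCF10A were 2.82 in MCF10DCIS and 2.19 in MCF10CA1a. RSAD2, which encodes the antiviral radical-SAM enzyme viperin, was at 0.139 TPM in MCF10A, listed at 0 in MCF10AT1, and at 0.0133 and 0.0176 TPM in MCF10DCIS and MCF10CA1a. Its neighbour CMPK2, a mitochondrial nucleotide kinase gene, did not exceed 0.0030 TPM.

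PARP9 and DTX3L, which form an ADP-ribosylating ubiquitin ligase complex, and PARP14, a related ADP-ribosyltransferase, differed little. DTX3L was at 5.37, 5.41, 3.83 and 9.05 TPM, PARP14 at 4.33, 4.97, 4.15 and 7.41 TPM, and PARP9 at 3.31, 3.72, 2.70 and 4.49 TPM. Each was highest in MCF10CA1a, against 28.7% of all genes, and none differed from MCF10A by 1 or more. Each had its lowest TPM in MCF10DCIS, where 57.3% of all genes did. With rescaled TPM, however, PARP9 (10.1 in MCF10DCIS, 9.63 in MCF10A) and PARP14 (15.6 in MCF10DCIS, 12.6 in MCF10A) were lowest in MCF10A.

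SAMD9, which encodes an antiviral protein that restrains translation and growth, was at 14.8 (MCF10A), 5.61 (MCF10AT1), 1.4 (MCF10DCIS) and 10.8 TPM (MCF10CA1a). The difference of -2.72 in MCF10DCIS was the largest downward difference of any ISG in that line with deposited TPM. EPSTI1 passed it with rescaled TPM (-3.48) and with a pseudocount of 0.1 (-4.95). Its neighbour and paralog SAMD9L was at 0.951, 0.840, 0.145 and 0.772 TPM, under 1 TPM throughout and lowest in MCF10DCIS. Both lie on chromosome 7, whose 627 genes had a median of -0.66 in MCF10DCIS with rescaled TPM, where SAMD9 differed by -2.81. The part of the chromosome in this difference was not tested.

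IFI27 and IFI6 encode small membrane proteins of mitochondria and endoplasmic reticulum. IFI27 was at 3.48, 1.09, 0.214 and 1.77 TPM, highest in MCF10A, with a difference of -1.88 in MCF10DCIS. IFI6 was at 0.827, 3.63, 0.529 and 4.12 TPM, and was higher than MCF10A in MCF10AT1 (1.34) and MCF10CA1a (1.49) but not in MCF10DCIS (-0.26). IFI44L was at 0.144, 3.23, 0.262 and 0.511 TPM, high in MCF10AT1 alone, while the adjacent IFI44 was at 1.32, 1.24, 0.430 and 1.89 TPM. The IFI44L difference of 1.89 was the largest of any ISG between MCF10AT1 and MCF10A with deposited TPM.

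TRIM22, an antiviral ubiquitin ligase gene, was at 23.6 (MCF10A), 19.9 (MCF10AT1), 4.5 (MCF10DCIS) and 11.2 TPM (MCF10CA1a). It was lower in MCF10DCIS (-2.16) and at the limit of the rule in MCF10CA1a (-1.01, or -0.91 with rescaled TPM). Of the 50-base stretches of its coding transcripts, 15.5% also occur in transcripts of other genes, chiefly OR56B1, so its level is uncertain. SP100, a constituent of PML nuclear bodies, was at 17.7, 18.4, 11.7 and 17.8 TPM. PLSCR1, which encodes a membrane scramblase, was at 42.2, 18.7, 13.0 and 31.0 TPM and was lower than MCF10A in MCF10AT1 (-1.14) and MCF10DCIS (-1.63). EPSTI1 was at 3.93, 1.18, 0.0302 and 0.0206 TPM and was lower in all derived lines, by -1.17, -2.26 and -2.27. LGALS3BP, a secreted galectin-binding glycoprotein gene, was the most abundant ISG in MCF10CA1a, with 79.0, 57.3, 157 and 209 TPM in MCF10A, MCF10AT1, MCF10DCIS and MCF10CA1a. It was higher in MCF10CA1a (1.39) and just under the rule in MCF10DCIS (0.98). XAF1, which encodes an antagonist of apoptosis inhibitors, was at most 0.0237 TPM.

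**Figure D3:**
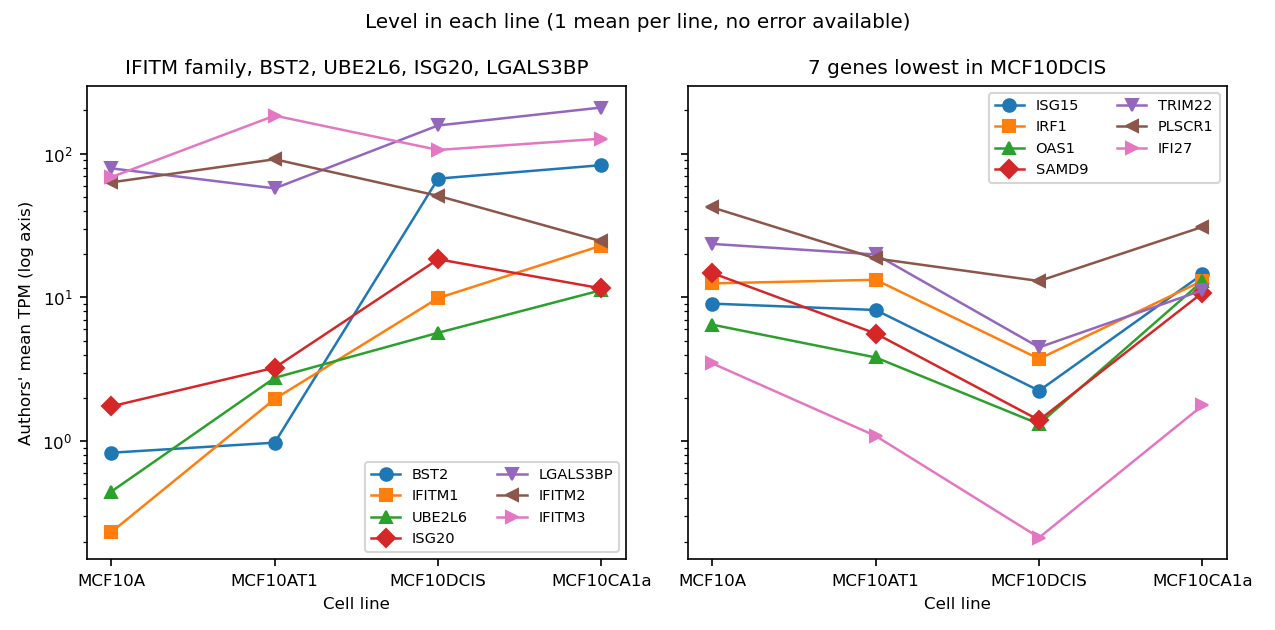
Authors' mean TPM (log axis) in each line for the IFITM genes, BST2, UBE2L6, ISG20 and LGALS3BP (left) and for 7 genes with their lowest level in MCF10DCIS (right), 1 point per line with no error available. BST2 was near 1 TPM in MCF10A and MCF10AT1 and at 67.0 and 83.2 TPM in MCF10DCIS and MCF10CA1a, while ISG15 was at 2.24 TPM in MCF10DCIS and 14.5 TPM in MCF10CA1a.

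Against MCF10A, the 5 ISGs counted as higher in MCF10AT1 were IFITM1, IFITM3, UBE2L6, IFI6 and IFI44L, where 3.39% of all genes were counted as higher. The 6 lower ones were IFIH1, HERC6, SAMD9, IFI27, PLSCR1 and EPSTI1, against 5.87% of all genes. Of these, HERC6, SAMD9 and EPSTI1 were lower in every setting tried. With rescaled TPM both counts were 6, against 5.80% and 6.66%. The median of the 36 ISGs was -0.043, close to that of all genes. Of the 6 lower genes, 5 of the 6 with a promoter window carried the ISRE core, as did 4 of the 5 higher ones.

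In MCF10DCIS the 4 higher ISGs were BST2, IFITM1, ISG20 and UBE2L6, against 3.56% of all genes. The 11 lower were IRF1, DDX58, IFIH1, OAS1, ISG15, HERC6, SAMD9, IFI27, TRIM22, PLSCR1 and EPSTI1, against 14.8% of all genes. With rescaled TPM the counts were 6 higher, against 7.81%, and 12 lower, against 10.4%. The ISG median was -0.52 beside -0.38 for all genes, or -0.28 beside -0.095 with rescaled TPM. With median-of-ratios scaling or quantile normalization the counts were 7 higher and 9 lower, and DDX58 and IFIH1 were no longer among the lower genes in every setting. The medians of all genes were then -0.00044 and 0.0040, and the shares of all genes passing the rule were not counted. BST2 had the largest difference in either direction. Of the 4 higher genes 3 had the ISRE core, UBE2L6 being the one without it, and of the 10 lower genes with a window 6 had it.

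In MCF10CA1a the 8 higher ISGs were BST2, IFITM1, UBE2L6, ISG20, IFI6, OAS3, LGALS3BP and OAS2, against 5.97% of all genes. The 3 lower were EPSTI1, IFITM2 and TRIM22, against 7.14%. With rescaled TPM 13 were higher, against 9.45%, and 2 lower, against 7.80%. The ISG median was 0.37 beside -0.074 for all genes, and 25 of the 36 differences were above 0, against 43.9% of all genes. These 3 comparisons share the MCF10A values.

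**Figure D4:**
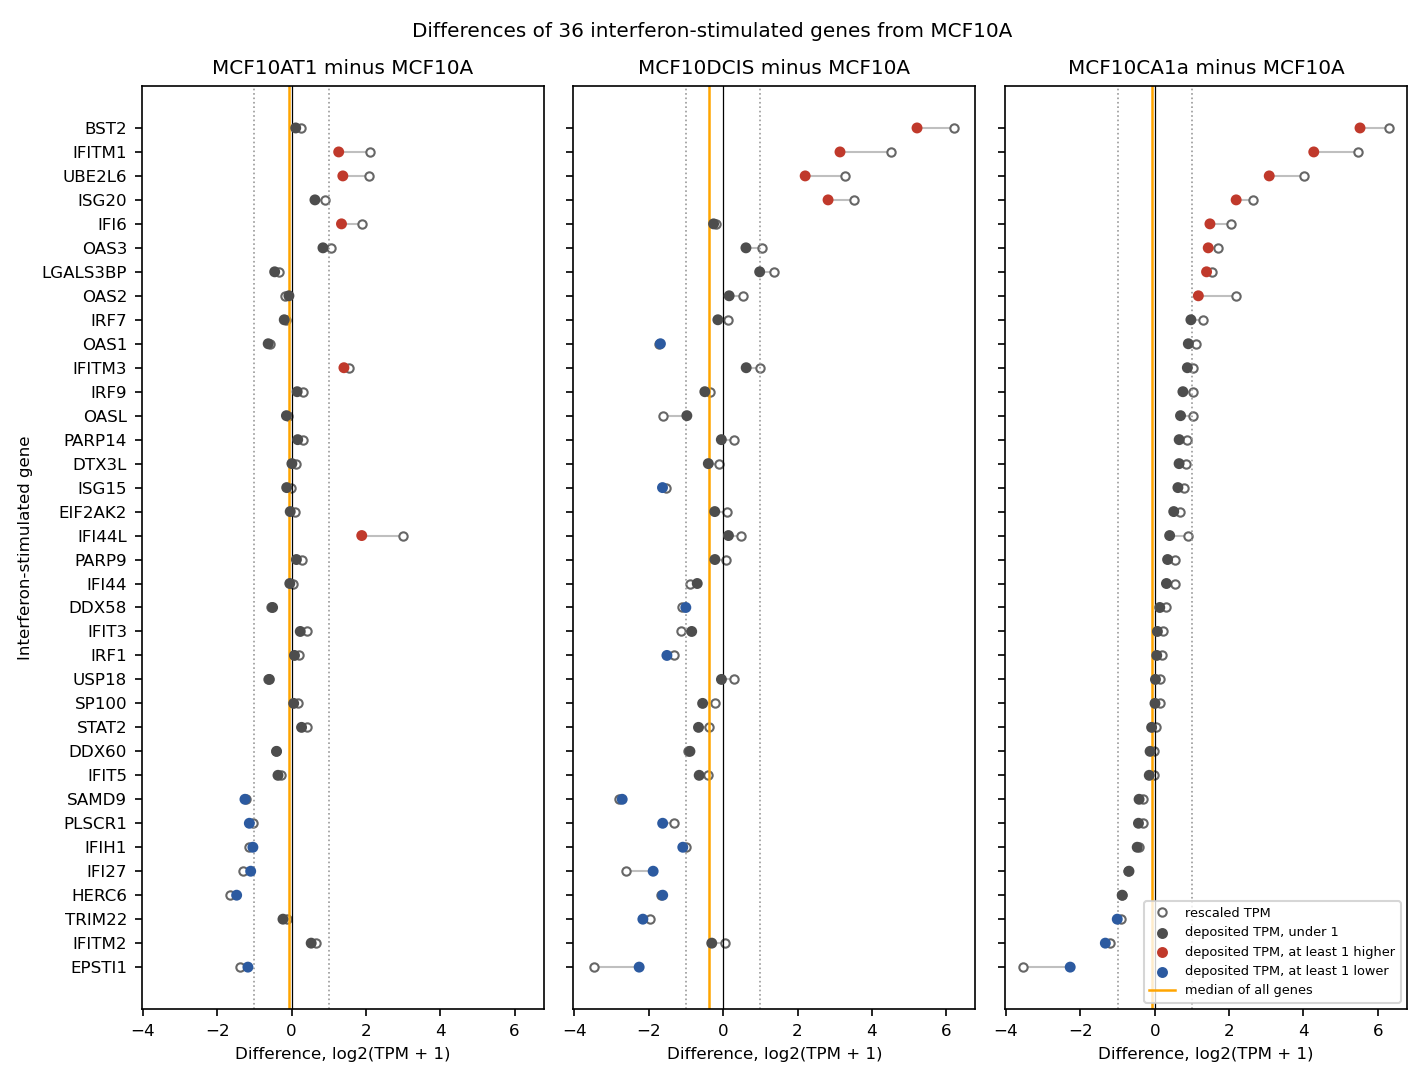
Differences of 36 ISGs from MCF10A in MCF10AT1, MCF10DCIS and MCF10CA1a, on the log2(TPM + 1) scale, with filled points for deposited TPM (red at least 1 higher, blue at least 1 lower), open points for rescaled TPM, dotted lines at the rule of size and the median of all genes in orange. BST2 stands at 0.11, 5.21 and 5.52 in the 3 panels and EPSTI1 at -1.17, -2.26 and -2.27.

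MCF10CA1a, the metastatic line, was also set against MCF10DCIS. Of the 36 ISGs, 33 were above 0 in MCF10CA1a minus MCF10DCIS, against 79.3% of all genes, and 32 with rescaled TPM, against 63.9%. By the rule of size 16 were higher, against 6.03% of all genes, or 15 with rescaled TPM, against 6.01%. The count was 8 with median-of-ratios scaling and 7 with quantile normalization, where the medians of all genes were 0.00042 and -0.0017. The share of all genes passing the rule was not counted in these 2 settings. OAS1 (2.59), SAMD9 (2.30), ISG15 (2.26), IFI6 (1.74), OASL (1.67) and IRF1 (1.57) led them. IFITM2 was the 1 lower gene (-1.02), against 1.35% of all genes, or 2.88% with rescaled TPM. The ISG median was 0.85 beside 0.30 for all genes, or 0.87 beside 0.14 with rescaled TPM. BST2 and IFITM1, the genes furthest above MCF10A in both lines, differed here by 0.31 and 1.14, and the BST2 difference lay between -0.065 and 0.31 over the settings tried.

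**Figure D5:**
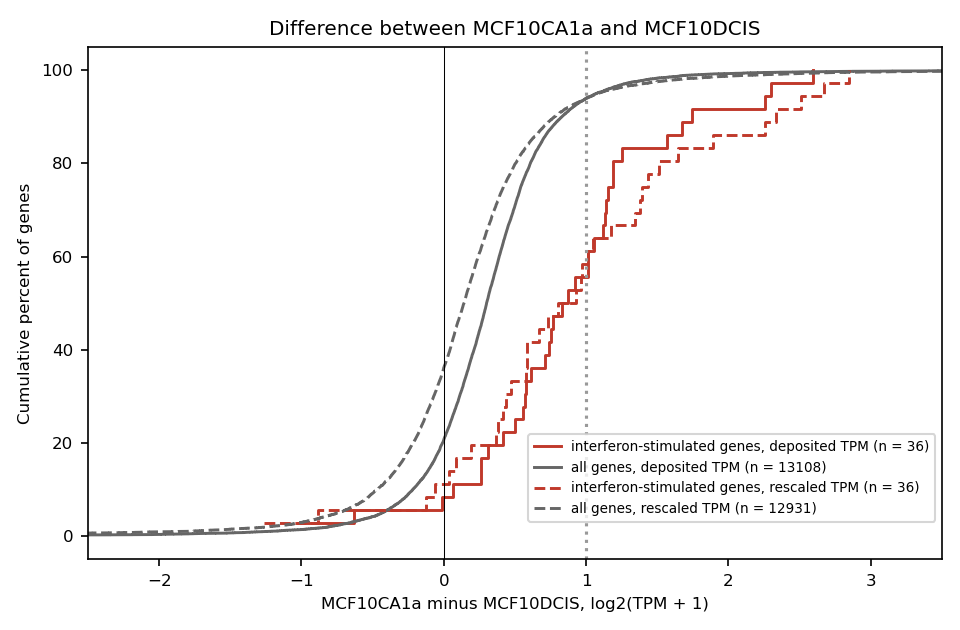
Cumulative percent of genes (vertical axis) at or below each difference MCF10CA1a minus MCF10DCIS on the log2(TPM + 1) scale, for 36 ISGs (red) and all genes (grey), with deposited (solid) and rescaled (dashed) TPM. The ISG curves lie to the right of those of all genes, with medians of 0.85 and 0.87 against 0.30 and 0.14.

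Against MCF10AT1, the premalignant line, MCF10DCIS had 4 ISGs higher, against 3.23% of all genes, and 9 lower, against 7.51%. With rescaled TPM the counts were 5, against 6.60%, and 11, against 7.45%. BST2 (5.10), ISG20 (2.19), IFITM1 (1.88) and LGALS3BP (1.44) were higher, and TRIM22 (-1.93), IFI44L (-1.74), IFI6 (-1.60) and IRF1 (-1.59) were the furthest lower. MCF10CA1a had 8 higher, against 6.00% of all genes, and 3 lower, against 3.97%. With rescaled TPM they were 9, against 8.35%, and 3, against 5.46%. BST2 (5.41), IFITM1 (3.01) and LGALS3BP (1.85) were the furthest higher there, and IFITM2 (-1.85), IFI44L (-1.48) and EPSTI1 (-1.10) were lower.

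The rest of the pathway was read from lists of other genes, whose counts stand beside the same shares of all genes: 3.56% higher and 14.8% lower in MCF10DCIS, and 5.97% higher and 7.14% lower in MCF10CA1a. These lists too were chosen with earlier results of these data known. Interferon genes were almost silent: 20 of 21 stayed under 0.1 TPM in every line. The exception, named after its values were seen, was IFNE, an interferon of epithelia, at 0.402, 1.23, 0.548 and 0.661 TPM in MCF10A, MCF10AT1, MCF10DCIS and MCF10CA1a. Of 9 receptor chains and JAK kinases, 8 passed 1 TPM, with 1 higher and 0 lower than MCF10A in MCF10DCIS and the same counts in MCF10CA1a. IFNGR2, a chain of the interferon gamma receptor, was at 20.2, 33.5, 46.4 and 58.2 TPM and gave those higher counts. The kinase gene JAK1 was at 10.7 TPM in MCF10DCIS, against 21.9 TPM in MCF10A.

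Among 17 other sensors and adaptors, 15 passed 1 TPM, of which 0 were higher and 2 lower in MCF10DCIS, and 0 in either direction in MCF10CA1a. With rescaled TPM 1 was higher and 3 lower in MCF10DCIS and 1 higher in MCF10CA1a, and the share of lower genes in MCF10DCIS is near that of all genes on the deposited scale. STING1, the adaptor of DNA sensing, was at 3.90, 17.4, 6.66 and 6.99 TPM, highest in MCF10AT1, and MYD88, an adaptor of Toll-like receptors, at 20.5, 14.8, 6.37 and 12.7 TPM. Of 16 negative regulators 0 were higher and 2 lower in MCF10DCIS, and 2 higher and 0 lower in MCF10CA1a, or 1 and 2, and 2 and 1, with rescaled TPM. Their share of lower genes in MCF10DCIS is likewise near that of all genes. Among 8 measured interferon gamma targets, 2 were higher and 1 lower in MCF10DCIS, and 0 differed by 1 in MCF10CA1a. With rescaled TPM 2 were higher in MCF10DCIS, against 7.81% of all genes, and 2 lower, against 10.4%. The 2 higher, named after their values were seen, were CD74 (3.24) and ICAM1 (2.45), at 8.64 and 6.52 TPM there. Both stayed under 1 TPM in the other lines. Among the gamma targets with at least 10 TPM, the most displaced was IFI30, a lysosomal thiol reductase, at 15.1, 4.52, 8.06 and 15.7 TPM. Of 36 further interferon-induced genes, 17 were lower and 0 higher in MCF10DCIS, or 13 and 1 with rescaled TPM, with a median of -0.82, or -0.63. Among all genes 14.8% were lower (median -0.38), and 10.4% after rescaling (median -0.095). In MCF10CA1a 1 was higher and 1 lower. The 1 higher, IFI35, was at 4.81, 3.38, 6.13 and 17.7 TPM. LY6E, which encodes a surface protein that restricts viral fusion, was at 637, 196, 171 and 213 TPM.

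Markers of other cell types that make interferon or respond to it were examined beside these levels. The summed TPM of 9 leukocyte markers was 14.9 (MCF10A), 8.27 (MCF10AT1), 3.92 (MCF10DCIS) and 0.863 TPM (MCF10CA1a), and CD14 alone was at 11.9, 6.83, 3.38 and 0.224 TPM. CSF1R, the other leukocyte marker that passed 1 TPM, was at 2.59, 1.34, 0.448 and 0.227 TPM, also lower along the lines in that order, and 4 of the 9 were under 0.1 TPM in every line. The part of these markers in the ISG levels was not tested. The defining leukocyte gene PTPRC, CD3E of T cells and CLEC4C of plasmacytoid dendritic cells did not exceed 0.0128 TPM in any line. The sums of 6 fibroblast and 4 endothelial markers did not exceed 3.55 and 3.84 TPM. The 8 epithelial markers summed to between 2207 and 3823 TPM and all passed 1 TPM.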

How the data were processed

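RNA-seq libraries of 4 cell lines (3 per line, 12 in all, per the labels) were prepared, per the labels' protocols, by a strand-preserving kit from total RNA. The authors deposited TPM, averaged per line per the file headers; STAR, edgeR and the build hg38 are named in the submitters' processing notes. For the counting program, annotation, strand setting and versions: not given in the sources used here. Reads of overlapping or antisense genes may therefore not be told apart.

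Differences are of log2(TPM + 1), first-named line minus second. Genes with at least 1 TPM in any line (13108) entered counts, and the rule of size was 1 on the log2 scale. Alternatives were a pseudocount of 0.1, no filter, a filter of 5 TPM, rescaled TPM, median-of-ratios scaling, quantile normalization and a 1.5-fold rule. The genes and lists were chosen with earlier results of these data known. Values are given one by one for genes with at least 10 TPM in some line that differ by 1 between lines, and for others where their role is described. From each further list the 2 genes furthest from MCF10A with at least 10 TPM were eligible for naming. Positions are from GENCODE 29; sequences are RefSeq's (GRCh38.p14). The calculation, in Python 3.11.15 with pandas 2.3.3, was tested on simulated data. In these, the MCF10A values stood for every line and chosen genes were multiplied by fixed factors, without noise. Such a test checks only the arithmetic of the rule.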

Additional observations from a re-analysis of the deposited data

How the results depend on the processing

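No paired analysis was possible because the table holds 1 mean per line; leaving out libraries was not possible for the same reason. Without a spread, no difference here is shown to exceed the variation between libraries. No ISG difference of at least 1 turned sign under the other settings, and 79 of 1206 single values crossed the rule of size. The 1206 include the values with no filter and with the filter of 5 TPM. These settings leave each gene's difference unchanged, so the share that crossed is understated. Shares of all genes were counted only with deposited and rescaled TPM under the main filter and rule, so the other counts below have none beside them. Counts that moved by over 1.5 times were as follows. With a filter of 5 TPM, fewer genes enter: MCF10AT1 against MCF10A had 3 higher and 3 lower, MCF10DCIS against MCF10A 7 lower, MCF10DCIS against MCF10AT1 5 lower, MCF10CA1a against MCF10AT1 1 lower and MCF10CA1a against MCF10DCIS 8 higher. With median-of-ratios scaling, MCF10DCIS against MCF10A had 7 higher and MCF10CA1a against MCF10DCIS 8 higher. Quantile normalization gave 7 higher for MCF10DCIS against MCF10A, 3 lower for MCF10AT1 against MCF10A and 7 higher for MCF10CA1a against MCF10DCIS. With rescaled TPM, 13 were higher in MCF10CA1a than in MCF10A. With a 1.5-fold rule, MCF10DCIS against MCF10A had 7 higher and 17 lower, MCF10CA1a against MCF10A 16 higher and 5 lower, MCF10DCIS against MCF10AT1 17 lower, MCF10CA1a against MCF10AT1 18 higher and MCF10CA1a against MCF10DCIS 2 lower. Under every scale and filter tried, BST2, IFITM1, UBE2L6 and ISG20 stayed at least 1 above MCF10A in MCF10DCIS and MCF10CA1a. For MCF10CA1a against MCF10DCIS, 7 genes (IRF1, OAS1, OASL, ISG15, SAMD9, IFI6 and IFI27) did so wherever they passed the filter.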

Other observations

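The nearest protein-coding genes above 1 TPM on either side of displaced ISGs gave a mixed picture, from which examples are given. MVB12A, an endosomal sorting gene whose annotated start lies 74 bases from BST2 on the opposite strand, was at 17.6, 16.5, 20.5 and 17.8 TPM in MCF10A, MCF10AT1, MCF10DCIS and MCF10CA1a. On the other side of BST2 the nearest protein-coding gene above 1 TPM, GTPBP3, was at 9.94, 9.18, 7.61 and 10.95 TPM. BISPR, a non-coding RNA gene that shares this start region with MVB12A and was named after its values were seen, was at 0.135, 0.299, 2.54 and 3.23 TPM, higher in MCF10DCIS (1.64) and MCF10CA1a (1.90) than in MCF10A, as BST2 was. Beside UBE2L6, TIMM10 was at 26.1, 29.8, 21.8 and 27.1 TPM and CLP1 at 5.15, 6.32, 3.01 and 4.52 TPM. Beside ISG20, the exonuclease gene AEN was at 20.8, 20.7, 13.2 and 20.7 TPM and HAPLN3 on the other side at 3.26, 2.94, 1.17 and 0.745 TPM, lower in MCF10CA1a (-1.29) where ISG20 was higher. DNAJC15 beside EPSTI1 was lower in MCF10DCIS (-1.91), as EPSTI1 was, and TIMP2 beside LGALS3BP was lower there too (-1.65), where LGALS3BP was not. For SAMD9, the flanking gene VPS50 was at 10.8, 4.64, 1.93 and 4.19 TPM, lower in MCF10DCIS like SAMD9, whereas CDK6 on the other side was at 17.8, 11.7, 11.8 and 15.7 TPM. PTGFR beside IFI44L was at 0.150, 3.18, 0.0068 and 0.0040 TPM, higher in MCF10AT1 (1.86) as IFI44L was. IFI44 on the other side differed by -0.049 there. Beside IFIH1, GCA was lower in MCF10AT1 (-2.95) and MCF10DCIS (-1.23), and FAP in MCF10DCIS (-3.35), where IFIH1 was lower too. The part of location in these differences was not tested.

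The 9 genes that did not reach 1 TPM in any line were IFIT1, IFIT2, MX1, MX2, HERC5, RSAD2, CMPK2, SAMD9L and XAF1, with highest levels between 0.0030 and 0.951 TPM. The ISRE core was found for 4 of the 7 of them with a promoter window, against 26 of 37 for the whole set. IFITM2, IFITM3 and LGALS3BP together held 50.7%, 66.6%, 63.1% and 51.7% of the summed TPM of the 45 genes in MCF10A, MCF10AT1, MCF10DCIS and MCF10CA1a.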
